A study of Mus musculus with 36 samples.

Results

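The 43 cell cycle and DNA replication genes described here were chosen by name from a list of replication and mitosis genes, drawn up with earlier results of these data known, out of 55487 genes in the count table. Polysome profiling RNA-seq had been performed on E14.5 mouse cortex from female embryos, each sample a pool of the cortices of 2 embryos, and gave 36 libraries in 12 groups of 3. In the LoF cross, cHet embryos (Emx1-Cre/+;Ddx3x lox/+) were compared with controls that carried Ddx3x lox/+ and no Cre. In the T532M cross, cHet embryos (Emx1-Cre/+;Ddx3x-T532M lox/+) were compared with controls that carried Emx1-Cre/+ alone. Each genotype was represented by polysome, monosome and input libraries, the input being an aliquot of clarified lysate taken before the sucrose gradient. Emx1-Cre acts in the dorsal telencephalic lineage, so interneurons, vessels, blood and other cells of the dissected cortex keep their alleles, and Cre separates the genotypes in the LoF cross but is present in both genotypes of the T532M cross.

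Dividing cells copy their genome in S phase and segregate it in mitosis. Cyclins of the D and E types with their kinases start the cycle, origins of replication are licensed when the MCM helicase is loaded onto them, and cyclins A and B with Cdk1, the Aurora and Polo kinases, condensin and the spindle carry out mitosis. In the embryonic cortex these genes mark the radial glia and intermediate progenitors that divide along the ventricle, whereas postmitotic neurons have left the cycle. Ddx3x encodes an X-linked DEAD-box RNA helicase that acts in translation initiation. On a gradient, the monosome fraction holds mRNAs with a lone ribosome and the polysome fraction those with several, so the libraries ask how the mRNAs of the division machinery are spread over ribosome fractions, and whether that spread differs with Ddx3x genotype.

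The libraries held 38059093 to 46271375 read pairs assigned to genes in input, 36999365 to 49049947 in monosome and 44214830 to 57935512 in polysome fractions. The dorsal cortical markers were detected in every input library, with Emx1 at 61.4 to 90.1 CPM, the read pairs of a gene scaled to the size of the library, Pax6 at 112 to 165 CPM and Eomes at 209 to 301 CPM. The ventral marker Dlx2 was also detected, at 41.1 to 88.4 CPM, and Ttr, a choroid plexus transcript, ranged from 0 to 183 CPM, above 10 CPM in the input of LoF cHet pool 1, LoF control pools 1 and 3 and T532M cHet pool 1. Ddx3x averaged 1929 ± 295 CPM in LoF cHet polysomes and 2404 ± 272 CPM in LoF control polysomes, and 5079 ± 886 CPM in T532M cHet polysomes and 2927 ± 608 CPM in T532M control polysomes (SD, n = 3 each). In polysomes Ddx3x overlapped between LoF cHet pools (2267, 1721 and 1799 CPM) and control pools (2516, 2093 and 2602 CPM), and did not between T532M pools. In monosomes it averaged 210 and 303 CPM in LoF cHet and control pools and 302 and 310 CPM in T532M cHet and control pools, the last pair overlapping. In input it was at 62.8, 118 and 92.6 CPM in LoF cHet pools, against 156, 90.8 and 97 CPM in LoF control pools, which overlapped, and at 235, 198 and 166 CPM in T532M cHet pools, against 50.1, 145 and 111 CPM in T532M control pools, which did not.

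Of the 43 genes, 42 had reads in all 36 libraries and passed the filter on low counts in both crosses. The exception was Cdt1, which encodes a licensing factor and had 0 read pairs in all 36 libraries. Its whole span (chr8:122568015-122573554, GRCm38, plus strand) lies within the annotated span of Galnt2l (chr8:119910841-124345722) on the same strand. Reads were counted over whole gene spans, introns included, and the level of Cdt1 was therefore not measured. Another 8 of the genes shared at most 3.62% of their span with a gene on the same strand.

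In control cortex the cell cycle mRNAs lay mostly in the polysome fraction when polysome and monosome libraries were compared. With edgeR's quasi-likelihood test and Benjamini-Hochberg adjustment over all genes (adjusted p below 0.05), 36 of the 42 genes were higher in polysomes than in monosomes and 4 were lower in LoF controls, and 37 were higher and 4 lower in T532M controls. Of all genes tested, 36.4% were higher and 44.9% lower in LoF controls, and 36% were higher and 43.9% lower in T532M controls. The median log2 fold change of the 42 genes was 1.80 in LoF controls and 1.88 in T532M controls, against a median of -0.31 over all genes in either cross. These values are relative to the other RNAs of each library and do not give amounts per cell. Upper-quartile scaling moved the median of all genes by -0.35 in LoF controls and by -0.38 in T532M controls, and the cell cycle genes then still stood 2.11 and 2.18 log2 units above it, against 2.11 and 2.19 with the scaling used throughout.

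**Figure D1:**
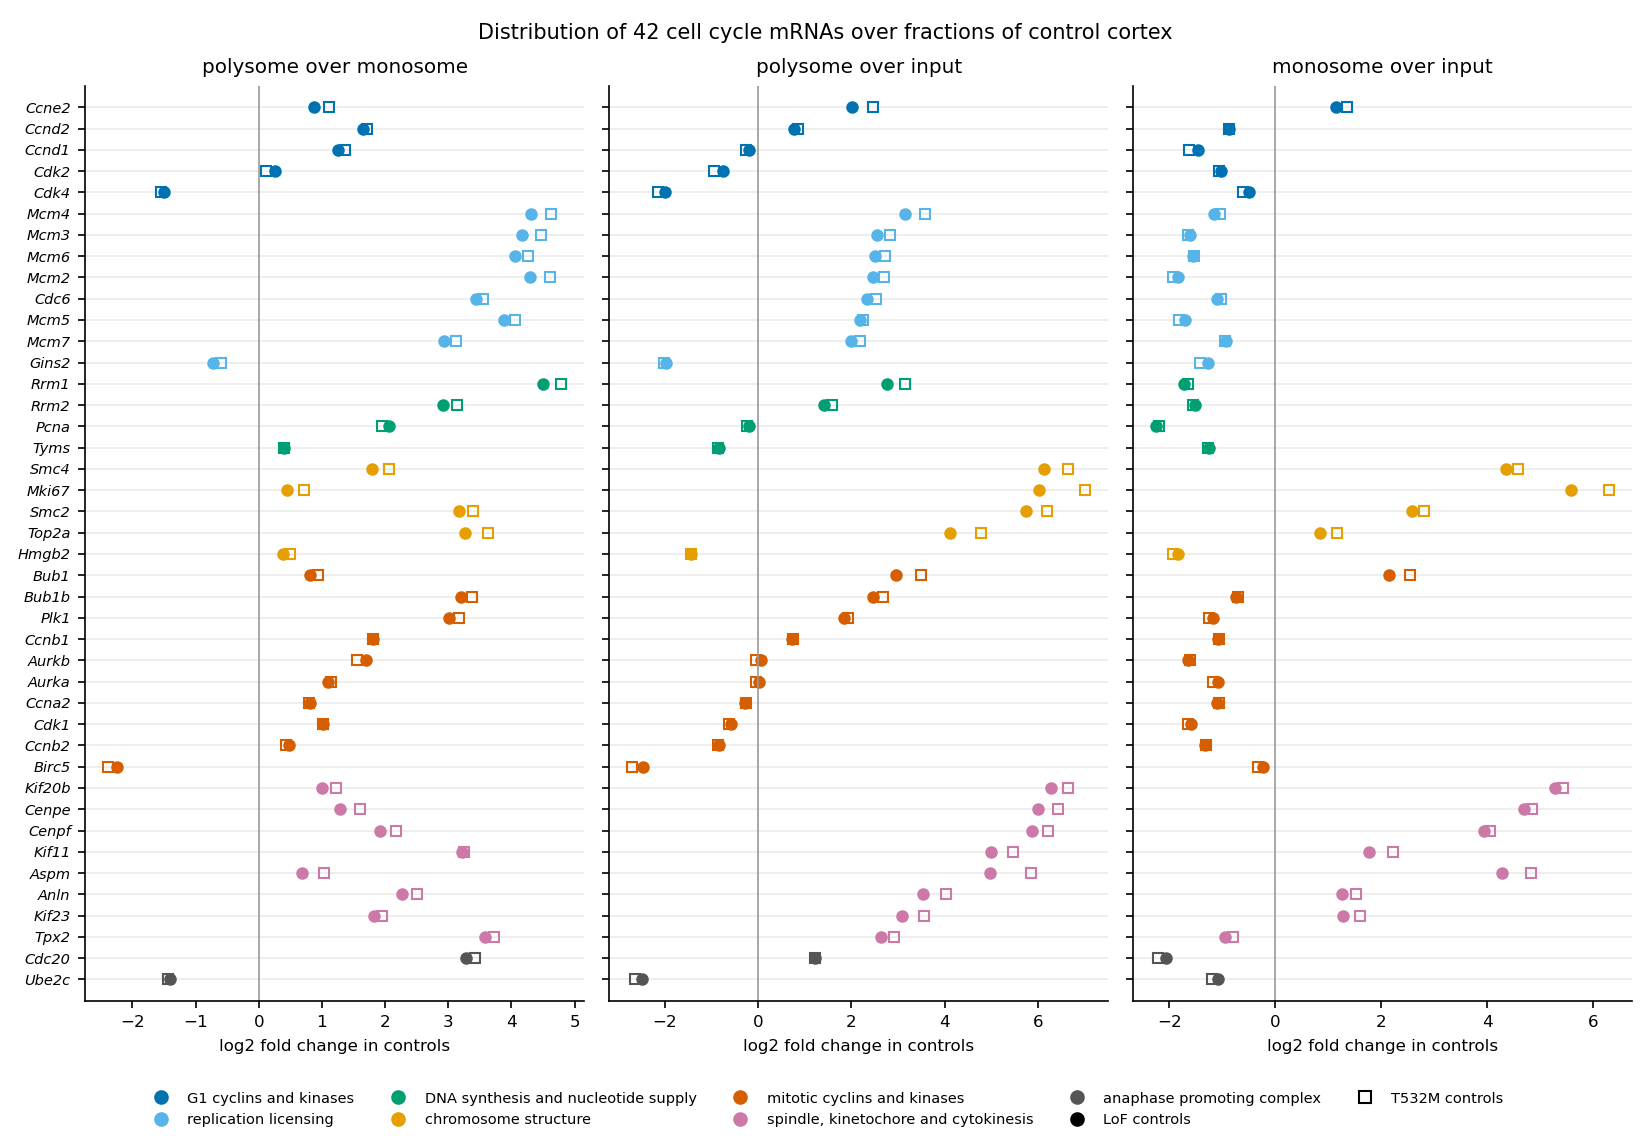
Log2 fold change (horizontal axis) of each of 42 cell cycle mRNAs (rows, coloured by role) between fractions of control cortex, from 3 pools a group; filled circles are LoF controls and open squares T532M controls. In the left panel 4 genes sit clearly left of 0 and the MCM genes and Rrm1 lie at 2.93 or above, and in the right panel 13 genes lie right of 0 in both crosses.

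The replication licensing group had the highest median of polysome over monosome among the 7 roles, at 3.97 in LoF controls and 4.15 in T532M controls, ahead of DNA synthesis and nucleotide supply at 2.48 and 2.54. Of its 8 genes with reads, 7 were higher in polysomes than in monosomes in both crosses. Mcm2 (ENSMUSG00000002870.8, chr6:88883474-88898780, minus strand), a subunit of the hexameric MCM helicase, was at 772, 623 and 812 CPM in LoF control polysomes, against 33.95, 41.8 and 36.7 CPM in their monosomes and 124, 134 and 145 CPM in their input. In T532M controls Mcm2 was at 785, 1076 and 491 CPM in polysomes, against 26.8, 37.1 and 31.9 CPM in monosomes and 119, 146 and 99.4 CPM in input. The 3 fractions did not overlap in either cross, with input between the other two. The polysome over monosome log2 fold change of Mcm2 was 4.30 in LoF controls and 4.62 in T532M controls (adjusted p = 9.33e-15 and 4.99e-11).

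Mcm5, another subunit of that helicase, was at 609, 521 and 617 CPM in LoF control polysomes, against 36.3, 42.1 and 40 CPM in monosomes and 114, 137 and 135 CPM in input. It was at 559, 788 and 453 CPM in T532M control polysomes, against 28.1, 42.6 and 38.1 CPM in monosomes and 122, 151 and 109 CPM in input, again with no overlap between fractions. The remaining subunits had polysome over monosome log2 fold changes in LoF and T532M controls of 4.30 and 4.63 for Mcm4, 4.17 and 4.46 for Mcm3, 4.06 and 4.25 for Mcm6, and 2.93 and 3.13 for Mcm7. Cdc6, the ATPase that loads the MCM hexamer together with the origin recognition complex, was higher by 3.43 and 3.56. The exception of the group was Gins2, a small subunit of the GINS complex that travels with the active helicase. Gins2 was at 6.26, 9.07 and 8.91 CPM in LoF control polysomes, against 12.96, 13.2 and 13.98 CPM in monosomes and 30.9, 35.5 and 30.1 CPM in input. Its polysome libraries were below all monosome libraries, and its log2 fold change was -0.72 in LoF controls and -0.60 in T532M controls (adjusted p = 0.000478 and 0.000965). Without the pools with most Ttr the LoF value was -0.51 and did not pass (adjusted p = 0.0739).

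The genes of DNA synthesis and nucleotide supply were all higher in polysomes than in monosomes (4 of 4 in both crosses), over a wide range. Rrm1 (ENSMUSG00000030978.10, chr7:102441695-102469771, plus strand), the large subunit of ribonucleotide reductase, had the highest value of the 42 genes. It was at 1322, 1056 and 1481 CPM in LoF control polysomes, against 51.1, 66.2 and 54.1 CPM in monosomes and 178, 189 and 199.7 CPM in input. In T532M controls it was at 1501, 2048 and 903 CPM in polysomes, against 49.5, 58.5 and 53.1 CPM in monosomes and 146, 208 and 151 CPM in input. Every polysome library exceeded every input library, and every input library exceeded every monosome library, with a polysome over monosome log2 fold change of 4.49 in LoF controls (SE 0.17) and 4.79 in T532M controls (SE 0.30; adjusted p = 1.71e-14 and 3.83e-11). Rrm2, the small subunit of the same enzyme, was higher by 2.91 and 3.13. Tyms, which makes thymidylate, was higher by only 0.40 in both crosses.

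Pcna, the sliding clamp of the replicative polymerases, was shifted in another way. It was at 175, 185 and 175 CPM in LoF control polysomes, against 39.9, 46.7 and 42.1 CPM in monosomes and 189, 209 and 215 CPM in input. T532M controls gave 144, 186 and 162 CPM in polysomes, against 36.1, 51.0 and 40.04 CPM in monosomes and 173, 228 and 183 CPM in input. The monosome libraries were far below both other fractions, while polysomes lay just under input in LoF controls and overlapped it in T532M controls. The polysome over monosome log2 fold change of Pcna was 2.06 and 1.95, whereas polysome over input was -0.20 and -0.24 and did not pass (adjusted p = 0.133 in both crosses). With a replicate block the T532M value passed (adjusted p = 0.0331). Both passed as lower with upper-quartile scaling, at -0.55 and -0.65, which moved the median of all genes over input by -0.35 and -0.41.

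Among the G1 cyclins and kinases, 3 of 5 were higher in polysomes than in monosomes and 1 was lower, in both crosses. Ccnd2 (ENSMUSG00000000184.12, chr6:127125162-127152193, minus strand), a D-type cyclin that activates Cdk4 and Cdk6, was at 2376, 2732 and 2428 CPM in LoF control polysomes, against 723, 924 and 768 CPM in monosomes and 1488, 1379 and 1535 CPM in input. In T532M controls it was at 1931, 2560 and 2099 CPM in polysomes, against 586, 762 and 653 CPM in monosomes and 956, 1607 and 1102 CPM in input. The 3 fractions were apart in both crosses, with log2 fold changes of polysome over monosome of 1.64 and 1.72. Ccnd1, the related D-type cyclin, was at 83.0, 108 and 94.6 CPM in LoF control polysomes, against 31.9, 52.7 and 35.4 CPM in monosomes and 91.7, 125 and 112 CPM in input. It was at 86.0, 114 and 85.7 CPM in T532M control polysomes, against 30.3, 42.03 and 38.4 CPM in monosomes and 106, 128 and 106 CPM in input. For Ccnd1 the polysome and input libraries overlapped in both crosses, and the monosomes were below them. Its polysome over input values of -0.20 in LoF and -0.25 in T532M controls did not pass, but did with upper-quartile scaling, at -0.55 and -0.66, by the same shift of all genes, and the T532M value also did with a replicate block (adjusted p = 0.028).

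Cdk4, the kinase partner of the D-type cyclins, went the other way. It was at 207, 259 and 233 CPM in LoF control polysomes, against 684, 608 and 684 CPM in monosomes and 896, 979.6 and 919.5 CPM in input, with no overlap. Its polysome over monosome log2 fold change was -1.50 in LoF controls and -1.55 in T532M controls (adjusted p = 2.1e-08 and 7.06e-10). Ccne2, an E-type cyclin that acts at the entry into S phase, was higher in polysomes than in monosomes by 0.88 and 1.11. For Cdk2, the kinase it binds, the difference did not pass in either cross (0.26 and 0.12; adjusted p = 0.118 and 0.519), and its sign turned with upper-quartile scaling, to -0.09 in LoF and -0.26 in T532M controls, by no more than the shift of all genes given above. DESeq2 called it higher in LoF controls, at 0.34.

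The mitotic cyclins and kinases were higher in polysomes than in monosomes for 9 of 10 genes in both crosses, with a median of 1.06 in LoF controls and 1.08 in T532M controls. Cdk1, the kinase that drives entry into mitosis, was at 97.1, 97.2 and 95.5 CPM in LoF control polysomes, against 45.4, 51.8 and 46.5 CPM in monosomes and 138, 149 and 148 CPM in input. T532M controls gave 77.2, 104 and 91.1 CPM in polysomes, against 40.8, 52.3 and 41.2 CPM in monosomes and 133, 156 and 133 CPM in input. Cdk1 was thus highest in input and lowest in monosomes, without overlap. Its partner Ccnb1, cyclin B1, was at 166, 158 and 156 CPM in LoF control polysomes, against 41.2, 48.7 and 47.5 CPM in monosomes and 90.5, 100.1 and 98.7 CPM in input. It was at 137, 179 and 160.3 CPM in T532M control polysomes, against 39.02, 52.0 and 45.6 CPM in monosomes and 85.3, 113 and 86.2 CPM in input, so that polysomes were highest in both crosses.

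Polo-like kinase Plk1 and the checkpoint kinase Bub1b were higher in polysomes than in monosomes by 3.01 and 3.20 in LoF controls, and Aurora kinases Aurka and Aurkb by 1.10 and 1.70. The exception was Birc5 (ENSMUSG00000017716.15, chr11:117849251-117855743, plus strand), which encodes survivin, a subunit of the chromosomal passenger complex that carries Aurora B. Birc5 was at 14.1, 18.5 and 15.3 CPM in LoF control polysomes, against 73.5, 79.5 and 73.3 CPM in monosomes and 80.1, 96.8 and 88.2 CPM in input. In T532M controls it was at 11.9, 16.8 and 13.2 CPM in polysomes, against 61.4, 93.7 and 63.1 CPM in monosomes and 86.4, 103 and 83.5 CPM in input. Polysomes were far below the other fractions in both crosses, with a polysome over monosome log2 fold change of -2.24 in LoF controls (SE 0.169) and -2.39 in T532M controls, the lowest of the 42 genes (adjusted p = 2.84e-10 and 3.6e-10).

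The anaphase promoting complex group was split. Ube2c, the ubiquitin-conjugating enzyme that works with the complex, was at 37.8, 48.8 and 44.1 CPM in LoF control polysomes, against 111, 121 and 116 CPM in monosomes and 226, 265 and 243 CPM in input. Cdc20, the activator that brings substrates to the same complex, was instead higher in polysomes than in monosomes by 3.28 in LoF and 3.42 in T532M controls. The log2 fold change of Ube2c was -1.41 and -1.44.

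Of the 13 genes of chromosome structure and of the spindle, kinetochore and cytokinesis, 11 were higher than input in both ribosome fractions in both crosses, all but Hmgb2 and Tpx2. Mki67 (ENSMUSG00000031004.8, chr7:135689784-135716361, minus strand) encodes Ki-67, which coats mitotic chromosomes and serves as the usual marker of dividing cells. It was at 803, 714 and 1133 CPM in LoF control polysomes, against 529, 798 and 621 CPM in monosomes and 16.9, 10.7 and 13.04 CPM in input. In T532M controls it was at 1189, 1672 and 559.5 CPM in polysomes, against 674, 703 and 711 CPM in monosomes and 5.69, 11.5 and 9.28 CPM in input. Polysome and monosome libraries overlapped in both crosses and input was far below both. Input was taken from the lysate before the gradient, and why both ribosome fractions exceeded it was not tested. The log2 fold change over input was 6.03 in polysomes and 5.59 in monosomes of LoF controls, and 7.02 and 6.30 in T532M controls. Polysome over monosome was 0.44 in LoF controls, which did not pass (adjusted p = 0.128) and turned to -0.13 without the pools with most Ttr, and 0.71 in T532M controls (adjusted p = 0.0356). The T532M call was lost with upper-quartile scaling (0.33), without any 1 of the control monosome libraries (0.69 to 0.73), without control polysome library 1 (0.69) and without control polysome library 2 (0.34).

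Aspm, a spindle pole protein whose human counterpart is a microcephaly gene, was at 200.1, 176 and 236 CPM in LoF control polysomes, against 106, 156 and 118 CPM in monosomes and 7.88, 5.74 and 5.88 CPM in input. It was at 282, 361 and 169.8 CPM in T532M control polysomes, against 122, 131 and 143 CPM in monosomes and 3.09, 5.61 and 5.33 CPM in input, with no overlap of fractions in either cross. Its polysome over monosome value was 0.69 in LoF controls, and 0.34 with upper-quartile scaling and 0.21 without the pools with most Ttr, neither of which passed, and 1.04 in T532M controls. Top2a, the topoisomerase that untangles sister chromatids, was at 1952, 1593 and 2506 CPM in LoF control polysomes, against 186, 239 and 204 CPM in monosomes and 139.7, 109 and 99.8 CPM in input. T532M controls gave 2551, 3622 and 1314 CPM in polysomes, against 183, 220.2 and 205 CPM in monosomes and 56.1, 131 and 85.3 CPM in input. For Top2a the step lay between polysomes and the other two fractions, with polysome over monosome at 3.27 and 3.62.

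The condensin subunits Smc4 and Smc2 were higher in polysomes than in input by 6.14 and 5.74 in LoF controls. The kinesin Kif20b, which acts in cytokinesis, was higher by 6.28, the kinetochore proteins Cenpe and Cenpf by 5.99 and 5.87, and the spindle motor Kif11 by 4.99. All 8 genes of the spindle, kinetochore and cytokinesis group were higher in polysomes than in monosomes and than in input, in both crosses, with the exceptions given for Aspm in LoF controls under other settings. Hmgb2, a chromatin-binding protein counted with chromosome structure, did not share the pattern, with polysome over input at -1.45 in both crosses.

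**Figure D2:**
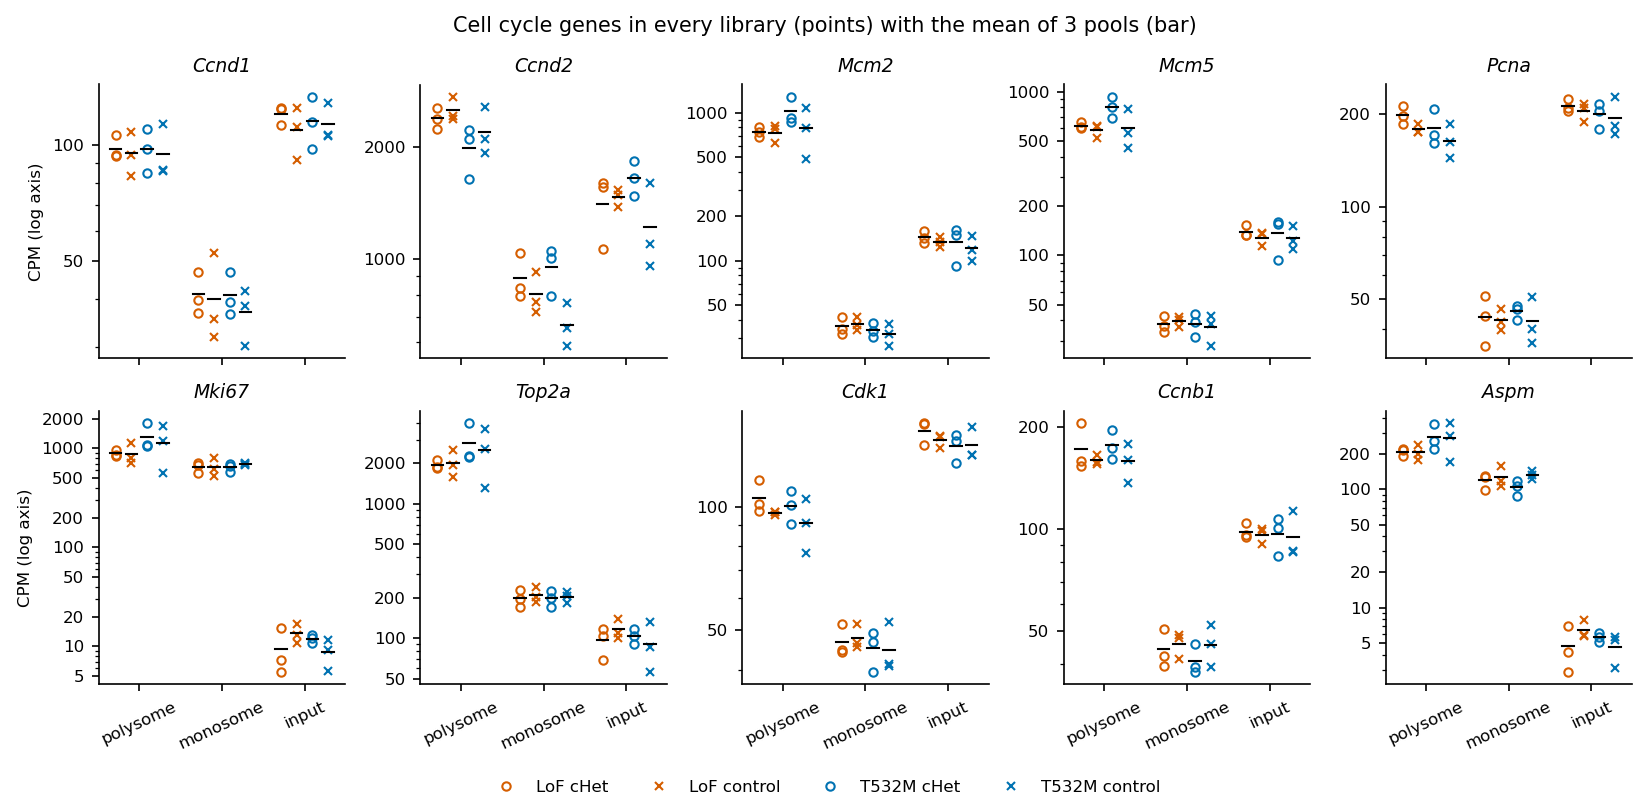
CPM on a log axis (vertical) of 10 cell cycle genes in each of 36 libraries, by fraction (horizontal), with cHet libraries as circles, control libraries as crosses and the mean of 3 pools as a bar; LoF is orange and T532M blue. For Mcm2 fractions separate by far more than genotypes do, as its LoF control libraries reach 812 CPM in polysomes and stay at or under 41.8 CPM in monosomes. Mki67 input libraries stay below those of both ribosome fractions, while Ccnd1 overlaps between polysomes and input.

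Against input, polysomes were higher for 28 of the 42 genes and lower for 10 in LoF controls, and higher for 28 and lower for 9 in T532M controls, while 36.5% of all genes were higher and 42.8% lower in LoF controls and 36.6% and 42.4% in T532M controls. Monosomes were higher than input for 13 genes and lower for 28 in both crosses, against 32.2% and 30.6% of all genes in LoF controls and 32.1% and 31% in T532M controls. Taken by these calls, 13 genes were higher in both ribosome fractions than in input in both crosses: Mki67, Top2a, Smc2, Smc4, Bub1, Ccne2, Aspm, Cenpe, Cenpf, Anln, Kif11, Kif20b and Kif23. Another 15 were lower in monosomes and higher in polysomes in both crosses, namely the 6 MCM genes, Cdc6, Rrm1, Rrm2, Ccnd2, Ccnb1, Plk1, Bub1b, Tpx2 and Cdc20. In LoF controls 9 genes were lower than input in both ribosome fractions, which were Cdk1, Cdk2, Cdk4, Ccna2, Ccnb2, Tyms, Hmgb2, Gins2 and Ube2c. In T532M controls the same held for 8 of these, all but Ccna2, whose polysome over input value of -0.27 did not pass (adjusted p = 0.128, and 0.014 with a replicate block). With that block Birc5 was also lower in T532M control monosomes than in input, at -0.34 (adjusted p = 0.00519, against 0.0925 without it).

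Coding length, which the choice by name did not use, ordered these differences closely. Birc5, Ube2c and Gins2, with 420, 537 and 555 coding bases, were among the lowest of the 42 genes in polysome over input, and Mki67, with 9531, and Kif20b, with 5322, were among the highest. Across the 42 genes, Spearman's rho between coding length and polysome over input was 0.94 in LoF controls and 0.95 in T532M controls. Over all genes tested with a coding sequence it was 0.77 across 14533 genes and 0.76 across 14359 genes, and over 106 other cell cycle genes it was 0.87 in both. These are correlations across genes of the same libraries, which are not independent replicates, and they are given as a description. The GC content of the coding sequence also moved with polysome over input among the 42 genes, with a rho of -0.68 in both crosses, against -0.27 and -0.30 over all genes.

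Polysome over monosome followed coding length less, with a rho of 0.42 and 0.47 over the 42 genes and 0.63 over all genes in either cross. The highest values belonged to mRNAs of middle length, with a median of 4.06 for the 9 genes above 2000 and up to 3000 coding bases in LoF controls, against 1.24 for all genes of that length. For the 12 genes above 3000 coding bases the median was 1.86 in LoF controls, against 1.75 for all such genes, and it was 2.11 in T532M controls, against 1.85. These 12 long mRNAs differed from other long mRNAs against input instead. Their median monosome over input was 3.26 in LoF controls, against 0.46 for all genes of that length, and their median polysome over input was 5.36, against 2.31. The 10 genes of up to 1000 coding bases had a median polysome over monosome of 0.39, against -1.34 for all genes that short.

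**Figure D3:**
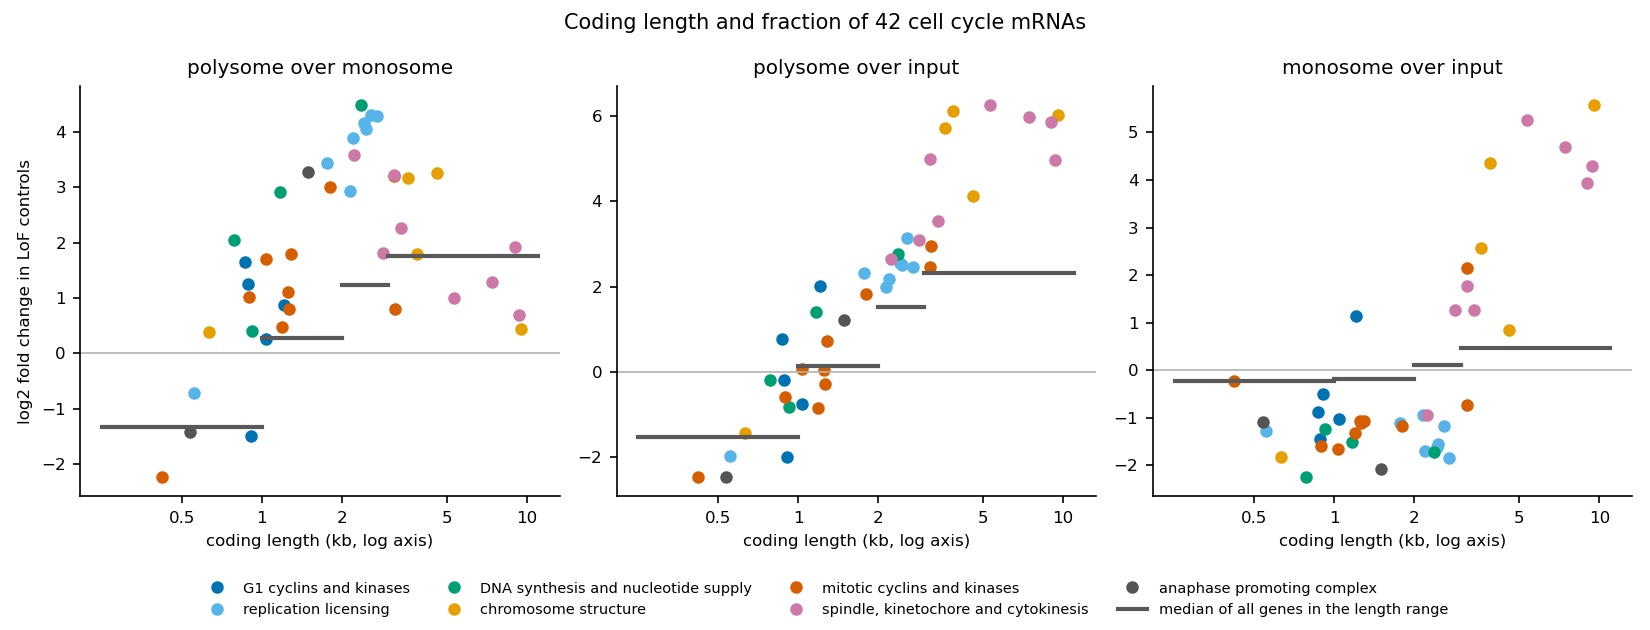
Coding length in kb on a log axis (horizontal) and log2 fold change between fractions of LoF controls (vertical) for 42 cell cycle mRNAs, coloured by role, with grey lines for the median of all genes in each length range. Polysome over input climbs along the whole range of length, whereas polysome over monosome peaks for mRNAs above 2000 and up to 3000 coding bases, whose median is 4.06.

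Genes of the same machinery outside the 43 were counted in the same way in LoF controls, where 36.4% of all genes were higher in polysomes than in monosomes and 44.9% lower. Of 36 other replication genes, 23 were higher and 10 were lower, with a median of 1.09, below the 1.80 of the 42 genes. Lig1, the ligase that joins Okazaki fragments, was higher by 4.76, and Rpa1, the large subunit of the single-strand binding protein, by 3.93, whereas its small subunit Rpa3 was lower at -2.78 and the origin subunit Orc6 at -2.59. Of 42 other mitosis genes, 31 were higher and 8 lower, with a median of 1.72. The kinesin Kif22 was higher by 3.48 and Prc1, which bundles midzone microtubules, by 3.31, while Cks2, a small Cdk-binding protein, was at -3.92 and Cenpa, the centromeric histone, at -3.62. Of 28 genes of cell cycle inhibitors and the E2F and RB families, 11 were higher and 13 lower, shares near those of all genes, with a median of -0.09 against -0.31 over all genes. The inhibitor Cdkn1c was higher by 2.54 and the transcription factor E2f1 was at -3.18.

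The promoters of 4 of the genes are shown because their letters differ between the replication and the mitosis genes, a sequence feature that the choice by name did not use. They are the RefSeq windows of GRCm38.p6, 300 bases from 250 before to 50 after the annotated start, all on the minus strand and written 5′ to 3′: Mcm6 at chr1:128359656-128359955, Ccnb2 at chr9:70421505-70421804, Cdc20 at chr4:118437294-118437593 and Mki67 at chr7:135716330-135716629. Capitals mark, on either strand, the CHR letters TTTGAA or TTCGAA, the CCAAT letters and the E2F letters TTCCCGC, or else TTGGCGC, or else TTCGCGC. CHR and CCAAT elements are known as sites of the DREAM and NF-Y factors in promoters of G2 and M phase genes, and E2F sites as those of G1 and S phase genes.
Mcm6: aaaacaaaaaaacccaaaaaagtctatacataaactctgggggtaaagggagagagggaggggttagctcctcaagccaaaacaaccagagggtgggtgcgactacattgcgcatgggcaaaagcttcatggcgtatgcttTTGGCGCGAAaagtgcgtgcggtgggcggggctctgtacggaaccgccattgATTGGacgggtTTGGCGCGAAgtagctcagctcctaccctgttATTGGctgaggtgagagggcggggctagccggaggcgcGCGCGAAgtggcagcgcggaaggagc
Ccnb2: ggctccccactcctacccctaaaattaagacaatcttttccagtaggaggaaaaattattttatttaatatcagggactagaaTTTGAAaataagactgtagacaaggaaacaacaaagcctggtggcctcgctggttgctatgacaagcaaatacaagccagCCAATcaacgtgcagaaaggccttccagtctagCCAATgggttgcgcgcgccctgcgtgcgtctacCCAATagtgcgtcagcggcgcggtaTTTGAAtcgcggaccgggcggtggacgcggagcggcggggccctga
Cdc20: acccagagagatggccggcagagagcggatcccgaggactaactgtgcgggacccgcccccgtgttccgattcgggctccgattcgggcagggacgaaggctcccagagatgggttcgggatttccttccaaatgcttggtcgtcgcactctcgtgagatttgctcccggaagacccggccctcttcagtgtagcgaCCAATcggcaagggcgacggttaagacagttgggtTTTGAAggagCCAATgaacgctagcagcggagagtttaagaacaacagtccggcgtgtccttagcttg
Mki67: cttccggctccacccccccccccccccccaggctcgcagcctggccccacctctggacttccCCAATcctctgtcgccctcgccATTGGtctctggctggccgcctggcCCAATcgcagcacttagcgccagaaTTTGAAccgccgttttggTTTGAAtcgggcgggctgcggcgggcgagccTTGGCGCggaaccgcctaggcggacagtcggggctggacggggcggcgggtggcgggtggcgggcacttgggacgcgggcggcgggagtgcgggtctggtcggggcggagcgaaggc

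Mcm6 held 5 matches to the E2F letters, of which 2 overlapped a neighbouring match, 2 CCAAT matches and 0 CHR matches. Ccnb2, cyclin B2, held 2 CHR, 3 CCAAT and 0 E2F matches, Cdc20 held 1, 2 and 0, and Mki67 held 2, 3 and 1. Promoter windows were found for 34 of the 43 genes. A gene was counted if any of its windows held the letters. CHR letters were found for 85.7% of the 21 chromosome structure and mitosis genes and 15.4% of the 13 G1 and DNA replication genes. Of all 27025 genes with a window, 21.7% had them. E2F letters were found for 14.3% and 61.5% of the same 2 sets, against 9.2% of all genes, and CCAAT for 85.7% and 69.2%, against 41.1%. These are matches of letters in a fixed window and not measured binding.

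**Figure D4:**
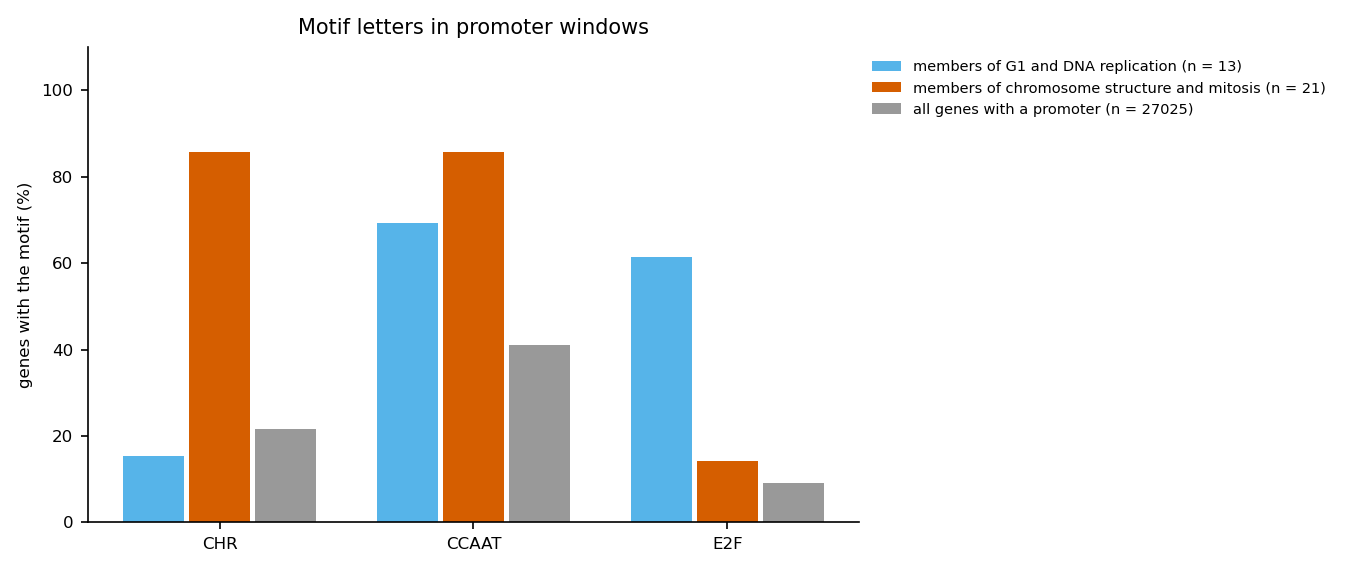
Percent of genes (vertical axis) whose 300-base promoter window held each motif's letters (horizontal axis), for 13 G1 and DNA replication genes, 21 chromosome structure and mitosis genes and 27025 genes in all. CHR letters were found for 85.7% of the chromosome structure and mitosis genes and E2F letters for 61.5% of the G1 and DNA replication genes.

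Set beside this spread over fractions, no cell cycle gene passed between genotypes in edgeR's test. In the LoF cross 0 of 42 genes passed in input, monosomes or polysomes, while 0%, 0.0108% and 0% of all genes did. In the T532M cross 0 of 42 passed in any fraction, against 0.00548% of all genes in input, 1.03% in monosomes and 0% in polysomes. Ddx3x itself therefore did not pass in LoF input or in polysomes of either cross. It averaged 5079 CPM in T532M cHet polysomes and 2927 CPM in T532M control polysomes, so these tests can miss differences of that size. At an unadjusted p below 0.05 there were 5, 0 and 0 of the 42 genes in LoF input, monosomes and polysomes, and 3, 2 and 0 in the T532M cross, against 10.8%, 4.2% and 3.23% of all genes in the LoF cross and 10.7%, 11.8% and 7.92% in the T532M cross. DESeq2 called 0 of the 42 genes in each of these 6 comparisons. In T532M monosomes and polysomes same-numbered libraries of the genotypes deviated together, and with the replicate number as a block over all fractions 0 of 42 genes passed in either, against 1.91% and 0.0219% of all genes. In these bulk samples, fewer cells of a type and less RNA per cell cannot be told apart.

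In LoF polysomes the differences were small, with 34 of 42 genes above 0 against 52.6% of all genes, and a median log2 fold change of 0.06 against 0.01. The lowest p was that of Aurka (ENSMUSG00000027496.15, chr2:172356190-172370535, minus strand), the Aurora kinase of the spindle poles. Aurka was at 90.4, 87.9 and 87.7 CPM in LoF cHet polysomes, against 76.6, 76.4 and 76.6 CPM in LoF control polysomes. The genotypes did not overlap, but the log2 fold change of 0.21 (SE 0.102) did not pass (unadjusted p = 0.0516, adjusted p = 1). Tyms followed with 0.22 and Rrm2 with 0.18. In all, 4 of the 42 genes (Aurka, Cdk1, Pcna and Rrm2) had every LoF cHet polysome library above every control library, and 0 had every one below, against 4.16% and 2.55% of all genes. Rrm2 was at 737, 645 and 672 CPM in LoF cHet polysomes, against 620.2, 606 and 583 CPM in LoF control polysomes.

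The other fixed genes overlapped between LoF cHet and control in polysomes, apart from Cdk1 and Pcna. LoF cHet polysomes held Mcm2 at 802, 686 and 739 CPM, Mcm5 at 654, 597 and 608 CPM and Top2a at 2096, 1832 and 1878 CPM. They held Mki67 at 861, 846 and 975 CPM, Aspm at 213, 192 and 217 CPM and Ccnb1 at 206, 159.5 and 154 CPM. All 6 overlapped the LoF control polysomes given above. Cdk1 at 97.5, 102 and 116 CPM and Pcna at 186, 198 and 214 CPM lay just above the highest control value of each, at 97.2 and 185 CPM. Ccnd1 at 93.6, 94.3 and 106 CPM and Ccnd2 at 2389, 2240 and 2558 CPM overlapped the controls.

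In LoF monosomes 11 of 42 genes were above 0 against 52.6% of all genes, with a median of -0.04 against 0.01. The lowest p values belonged to Tyms at -0.20, Cdc20 at -0.16 and Hmgb2 at -0.15 (adjusted p = 1 for each). Mcm7 had every LoF cHet monosome library below every control library, at 105, 103 and 99.98 CPM against 108, 113.5 and 110.5 CPM, as did 4.97% of all genes, and 0 of the 42 genes had every one above, against 5.57%. LoF cHet monosomes held Mcm2 at 41.99, 32.04 and 34.8 CPM, Mcm5 at 42.7, 34.2 and 36.9 CPM and Pcna at 44.3, 35.4 and 51.4 CPM. They held Mki67 at 714.5, 568.5 and 674 CPM, Top2a at 228.5, 170.2 and 195 CPM and Aspm at 128, 98.6 and 130.3 CPM. Ccnd1 at 39.8, 36.7 and 47.0 CPM, Ccnd2 at 836, 798 and 1038 CPM, Cdk1 at 51.7, 44.3 and 44.6 CPM and Ccnb1 at 50.8, 39.3 and 42.1 CPM completed the set. All 10 overlapped the LoF control monosomes. The pools with most Ttr in input were also left out, with monosome libraries dropped by the same replicate number, an assumed pairing. That left 1 LoF control pool and 2 cHet pools, and the median of the 42 genes was -0.25. Single values were -0.48 for Mcm3, -0.52 for Mcm4, -0.48 for Rrm1 and -0.55 for Anln.

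In LoF input 21 of the 42 genes were above 0 against 48.4% of all genes, and 0 had every cHet library above or below every control library, against 5.08% and 6.22% of all genes. The sign differed with length. Of the 12 genes above 3000 coding bases, 1 was above 0, with a median of -0.40, while 20 of the 30 shorter genes were above 0, with a median of 0.07. Kif20b (ENSMUSG00000024795.11, chr19:34922361-34975745, plus strand) had the lowest p. It was at 0.806, 1.02 and 1.68 CPM in LoF cHet input, against 2.39, 1.68 and 1.44 CPM in LoF control input, and the genotypes overlapped. Its log2 fold change was -0.66 (SE 0.231, unadjusted p = 0.00983, adjusted p = 0.286). Bub1, the spindle checkpoint kinase, was at 4.37, 10.7 and 9.17 CPM in LoF cHet input, against 19.5, 10.6 and 9.60 CPM in LoF control input. Ccne2 was at 3.15, 8.80 and 6.99 CPM in LoF cHet input, against 14.9, 8.72 and 7.71 CPM in LoF control input. For both genes pool 1 was the lowest cHet library and pool 1 the highest control library, while pools 2 and 3 were close between genotypes. With no filter on low counts, 4 of the 42 genes passed as lower (Bub1 at -0.72, Ccne2 at -0.73, Kif20b at -0.67 and Mki67 at -0.55), together with 967 of all genes.

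Among the other genes in LoF input, Mki67 was at 5.51, 7.25 and 15.1 CPM in cHet pools, against the 16.9, 10.7 and 13.04 CPM of control pools. LoF cHet input held Aspm at 2.87, 4.21 and 7.04 CPM and Top2a at 68.3, 104 and 117 CPM. Both overlapped the LoF control input. LoF cHet input held Mcm2 at 133, 143 and 159 CPM, Mcm5 at 132, 133 and 154 CPM and Pcna at 205, 209.6 and 223 CPM. It held Ccnd1 at 125, 113 and 124 CPM, Ccnd2 at 1067, 1605 and 1564 CPM, Cdk1 at 158.5, 141 and 159.5 CPM and Ccnb1 at 96.0, 94.5 and 104 CPM. All of these overlapped the control input as well. The median CPM of the 12 long genes was 8.87, 11.4 and 15.2 in LoF cHet input, against 17.9, 12.5 and 13.5 in LoF control input. The log2 SD between the 3 pools had a median of 0.39 for the long genes in LoF cHet input and 0.28 in LoF control input, against 0.13 and 0.10 for the shorter genes.

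In the T532M cross 39 of 42 polysome values were above 0 against 45.7% of all genes, with a median log2 fold change of 0.18 against -0.02. The licensing genes had a median of 0.31, with 8 of 8 above 0, and the spindle group 0.12, with 8 of 8 above 0. The lowest p values were those of Aurka at 0.31 (adjusted p = 0.628), Mcm5 at 0.43 (adjusted p = 0.66) and Tyms at 0.24 (adjusted p = 0.674). Mcm5 was at 694, 928 and 804 CPM in T532M cHet polysomes, against 559, 788 and 453 CPM in T532M control polysomes, and the genotypes overlapped. Of the 42 genes, 0 had every cHet polysome library above or below every control library, against 3.82% and 5.8% of all genes. With polysomes fitted alone and a replicate block the median was 0.24, and Aurka at 0.34 and Mcm5 at 0.49 did not pass (adjusted p = 0.252 for each). The median moved with single polysome libraries, to -0.00 without control library 3, 0.04 without cHet library 2, 0.27 without cHet library 1 and 0.38 without control library 2.

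Control library 3 was the lowest of its group for the long mRNAs, with a median over the 12 long genes of 679, 989 and 702 CPM in T532M cHet polysomes, against 706, 919 and 465 CPM in T532M control polysomes. T532M cHet polysomes held Mki67 at 1057, 1799 and 1095 CPM, against the 1189, 1672 and 559.5 CPM of control polysomes. They held Top2a at 2275, 3966 and 2229 CPM, against 2551, 3622 and 1314 CPM. For both genes pool 2 gave the highest library of each genotype. The summed CPM of the 42 genes was 21010, 30630 and 23080 in T532M cHet polysomes, against 21520, 29230 and 15740 in T532M control polysomes. T532M cHet polysomes held Mcm2 at 864, 1280 and 923 CPM, Aspm at 256, 352 and 219.9 CPM and Ccnb1 at 161.5, 173 and 196 CPM. They held Ccnd1 at 84.8, 97.9 and 110.1 CPM, Ccnd2 at 1643, 2101 and 2228 CPM, Cdk1 at 100.9, 90.5 and 109 CPM and Pcna at 171, 161 and 209 CPM. All of these overlapped the T532M control polysomes.

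In T532M monosomes 23 of the 42 genes were above 0, against 42.8% of all genes, with a median of 0.00 against -0.05. The leading gene was Ccnd2. It was at 1055, 1005 and 795 CPM in T532M cHet monosomes, against 586, 762 and 653 CPM in T532M control monosomes. The genotypes did not overlap, and the log2 fold change of 0.51 (SE 0.191) did not pass (unadjusted p = 0.0152, adjusted p = 0.286). With monosomes fitted alone and the replicate number as a block, a fit chosen after seeing the data, Ccnd2 passed at 0.55 (adjusted p = 0.0287), the only gene of the 42, against 5.1% of all genes. In input Ccnd2 was at 1649, 1842 and 1479 CPM in T532M cHet pools, against 956, 1607 and 1102 CPM in control pools, with a log2 fold change of 0.44. In polysomes the sign was the opposite, at -0.14. Cdk4 followed in monosomes, at 726, 757 and 826 CPM in T532M cHet, against 602, 732 and 607 CPM in control, with a log2 fold change of 0.25 (adjusted p = 0.403), and Gins2 with 0.28 (adjusted p = 0.461).

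Few of the genes separated the genotypes in T532M monosomes. Ccnd2 alone of the 42 genes had every cHet library above every control library, against 8.93% of all genes. Aspm and Cenpf had every cHet library below every control library, against 12.7% of all genes, and Aspm was at 88.3, 107 and 118 CPM in T532M cHet monosomes, against 122, 131 and 143 CPM in control monosomes. Of the 12 long genes 2 were above 0 in T532M monosomes, with a median of -0.15, while 21 of the 30 shorter genes were above 0, with a median of 0.04. T532M cHet monosomes held Mki67 at 574, 705 and 668 CPM, Top2a at 171, 199 and 223 CPM and Mcm2 at 30.5, 33.8 and 38.1 CPM. They held Mcm5 at 31.9, 38.9 and 43.5 CPM, Pcna at 42.9, 47.5 and 46.7 CPM and Cdk1 at 39.6, 46.7 and 49.3 CPM. Ccnd1 at 36.5, 47.0 and 39.2 CPM and Ccnb1 at 37.8, 39.1 and 45.7 CPM also overlapped the control monosomes, as did the 6 genes before them.

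In T532M input 33 of the 42 genes were above 0 against 49.7% of all genes. All 12 long genes were above 0, with a median of 0.26, which is the opposite sign to LoF input, and 21 of the 30 shorter genes were above 0, with a median of 0.03. Ccne2 was at 16.7, 13.1 and 8.51 CPM in T532M cHet input, against 4.23, 11.4 and 7.86 CPM in T532M control input, with a log2 fold change of 0.70 (unadjusted p = 0.0164, adjusted p = 0.384). Kif20b was at 2.84, 2.68 and 2.53 CPM in T532M cHet input, against 1.16, 1.92 and 1.99 CPM in T532M control input, the only gene of the 42 without overlap there, against 6.11% of all genes with every cHet library above every control library and 7.21% below. Its log2 fold change was 0.67 (adjusted p = 0.41). T532M cHet input held Mki67 at 10.8, 13.1 and 12.0 CPM, Aspm at 5.62, 6.05 and 5.12 CPM and Top2a at 103, 116.5 and 90.9 CPM. It held Mcm2 at 92.5, 160.4 and 150.4 CPM, Mcm5 at 94.2, 160.2 and 155 CPM and Pcna at 179, 215 and 205 CPM. Ccnd1 at 97.8, 133 and 115 CPM, Cdk1 at 127, 149 and 144 CPM and Ccnb1 at 83.3, 107 and 100.5 CPM completed the set, and these 9 genes overlapped the T532M control input.

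**Figure D5:**
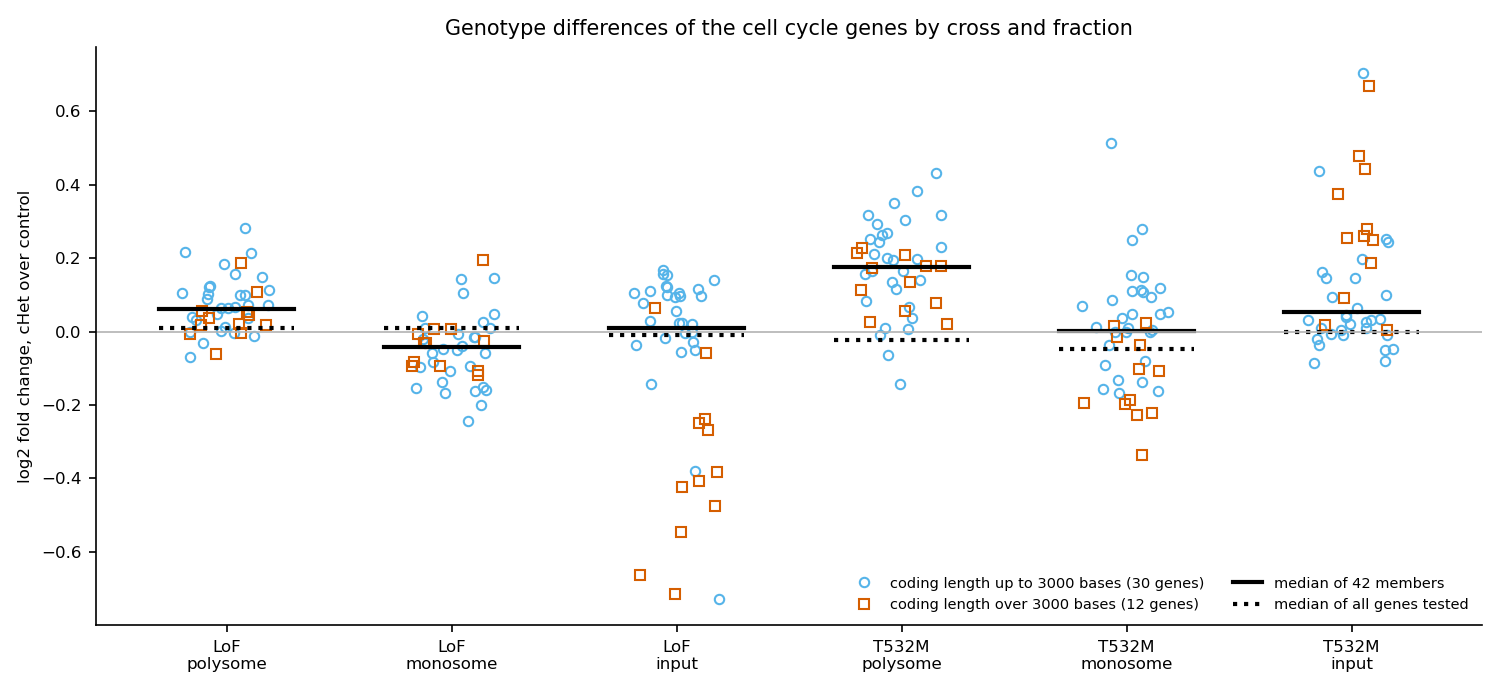
Log2 fold change of cHet over control (vertical axis) of 42 cell cycle genes in each cross and fraction (horizontal axis), with the 12 long mRNAs as orange squares and the 30 shorter ones as blue circles; solid bars are the median of the 42 genes and dotted bars that of all genes. The long mRNAs lie mostly below 0 in LoF input (median -0.40) and above 0 in T532M input (median 0.26), and 0 of 42 genes passed in any column in the fit shown, which has no replicate block.

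The change of ribosome association between genotypes was tested directly as the difference of the genotype effects in 2 fractions. For polysome over monosome 0 of 42 genes passed in either cross, against 0% and 0.0603% of all genes in the LoF and T532M crosses, with 1 gene each at an unadjusted p below 0.05, against 3.02% and 6.85% of all genes. The lowest p was that of Tyms in the LoF cross, at 0.42 (SE 0.174, adjusted p = 1), ahead of Rrm2 at 0.32 and Cdc20 at 0.26. In the T532M cross it was that of Ccnd2, at -0.66 (SE 0.27, adjusted p = 0.645), ahead of Cdk4 at -0.26 and Ccnb1 at 0.31. The median over the 42 genes was 0.12 in the LoF cross, against -0.01 over all genes, and 0.25 in the T532M cross, against 0.02, with 36 of 42 genes above 0 in each, against 49.1% and 51.9% of all genes. With 1 library left out at a time the medians ranged from 0.04 to 0.19 in the LoF cross and from 0.05 to 0.41 in the T532M cross. Without the pools with most Ttr the LoF median was 0.41, with medians of 0.15 in polysomes and -0.25 in monosomes.

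For polysome over input 0 of 42 genes passed as well, against 0.0108% and 0% of all genes in the LoF and T532M crosses, with 3 genes and 1 gene at an unadjusted p below 0.05, against 6.87% and 6.1% of all genes. Ccne2, Bub1 and Kif20b led in the LoF cross, at 1.01, 0.82 and 0.66 (adjusted p = 0.715 for each). With no filter on low counts Ccne2 and Bub1 passed, given without the share of all genes in that setting. In the T532M cross Ccnd2 led at -0.58 (adjusted p = 0.807), ahead of Kif20b at -0.59 and Ube2c at 0.28. DESeq2 called 0 of the 42 genes in each of these 4 tests.

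The genotype effects of the 2 crosses were also compared with each other over all 36 libraries. The LoF effect minus the T532M effect passed for 0 of 42 genes in input, monosomes and polysomes, against 0.0105%, 0% and 0% of all genes, with 5, 0 and 0 genes at an unadjusted p below 0.05, against 15.9%, 6.69% and 5.59%. In input the lowest p values were those of Kif20b at -1.35 (SE 0.379, adjusted p = 0.0762), Ccne2 at -1.45 (SE 0.414, adjusted p = 0.0782) and Bub1 at -1.21 (adjusted p = 0.145). DESeq2 called Kif20b and Ccne2 there, at -1.29 and -1.38 (adjusted p = 0.0246 and 0.0291), and 0 genes in the other fractions. The call moved with single input libraries, to 5 genes without T532M control library 2, to 2 without T532M cHet library 3, and to 1, Ccne2, without LoF cHet library 2 or LoF control library 2. The shares of all genes called by DESeq2 and without these libraries are not given. In monosomes the lowest p was that of Ccnd2 at -0.37 (adjusted p = 0.855), ahead of Gins2 at -0.30 and Hmgb2 at -0.27, and in polysomes that of Ccnb2 at 0.22 (adjusted p = 0.992), ahead of Mcm5 at -0.34 and Mcm2 at -0.36.

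The T532M controls, which carry Emx1-Cre, and the LoF controls, which carry the floxed allele and no Cre, differed in 0 of 42 genes in input, monosomes and polysomes, against 0.0261%, 0.0366% and 0.0105% of all genes, with 0 genes at an unadjusted p below 0.05 in each, against 7.03%, 6.86% and 7.91% of all genes, and 0 calls by DESeq2. Mki67 at -0.59 and Aspm at -0.45 led in input, Kif11 at 0.33 in monosomes, and Aspm at 0.47 and Cenpf at 0.36 in polysomes (adjusted p = 0.786, 0.825, 0.907, 0.665 and 0.683). Cross and Cre cannot be told apart in this comparison.

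Of the other pathway lists, 0 of 36 replication genes and 0 of 42 mitosis genes passed between genotypes in any fraction of either cross by edgeR's test. At an unadjusted p below 0.05 there were 1 to 6 replication genes a comparison, against 3.23% to 11.8% of all genes. Of the mitosis genes 12 fell under it in LoF input, against 10.8% of all genes, 0 in LoF monosomes and polysomes, and 1 or 2 in each T532M fraction. DESeq2 called 1 replication gene, Gins4 in T532M monosomes, and 0 mitosis genes. At an unadjusted p below 0.05 there were 4, 0 and 0 of the 28 inhibitor and E2F and RB genes in LoF input, monosomes and polysomes. The shares of all genes there were 10.8%, 4.2% and 3.23%. In the same fractions of the T532M cross there were 7, 9 and 4, against 10.7%, 11.8% and 7.92% of all genes. Of the 28 genes 1 passed, in T532M monosomes, against 1.03% of all genes, and DESeq2 called 3 there (Btg1, Ccnd3 and E2f5). The gene that passed was Btg1, an antiproliferative gene, at 327, 311 and 348 CPM in T532M cHet monosomes, against 240, 252 and 224 CPM in T532M control monosomes. The genotypes did not overlap, and Btg1 rose by 0.46 on the log2 scale (SE 0.088, adjusted p = 0.0143).

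Markers of the cell types in the tissue were set beside these values, and their part in them was not tested. Of the 11 radial glia markers tested 0 passed in edgeR's test in any fraction of either cross, and DESeq2 called at most 1. At an unadjusted p below 0.05 there were 0 to 3, the 3 in LoF monosomes, against 4.2% of all genes there. In T532M polysomes 8 were above 0, against 45.7% of all genes, with a median of 0.23. Of the 11 excitatory neuron markers tested 0 passed, and DESeq2 called at most 1. At an unadjusted p below 0.05 there were 5 in T532M monosomes and 5 in T532M polysomes, against 11.8% and 7.92% of all genes. There were 2 in the input of each cross, against 10.8% of all genes in LoF and 10.7% in T532M, and 0 in LoF monosomes and polysomes. In T532M polysomes 0 of these 11 were above 0, against 45.7% of all genes, with a median of -0.40. Their summed level there was 8620, 9533 and 10530 CPM in cHet, against 14780, 10110 and 12210 CPM in control.

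The choroid plexus and hem markers moved with the pools named above. Of these 12 markers 0 passed, and DESeq2 called at most 1 in a comparison. At an unadjusted p below 0.05 there were 4, 1 and 6 in LoF input, monosomes and polysomes, against 10.8%, 4.2% and 3.23% of all genes. In the same fractions of the T532M cross there were 4, 2 and 7, against 10.7%, 11.8% and 7.92%. All 12 were below 0 in LoF input, with a median of -1.24 and sums of 73.2, 29.9 and 13.8 CPM in LoF cHet, against 224, 39.8 and 236 CPM in LoF control. All 12 were above 0 in T532M input, with a median of 2.68 and sums of 274, 35.2 and 11.8 CPM in T532M cHet, against 18 to 20.5 CPM in T532M control. The sign in each cross was that of the long cell cycle mRNAs in input, but the pools did not all follow it. The median of the 12 long genes rose over the LoF cHet input pools, at 8.87, 11.4 and 15.2 CPM, where the marker sums fell. It fell with the sums in T532M cHet input, at 16.4, 15.2 and 12.4 CPM. In LoF control input it was 17.9, 12.5 and 13.5 CPM. In T532M control input, where the sums were close, it was 8.62, 15.8 and 12.7 CPM. A link between the markers and the long genes was not tested. The 12 interneuron and ventral markers had medians of -0.33 in LoF input and 0.16 in T532M input, with 0 passing in any fraction and at most 1 called by DESeq2. At an unadjusted p below 0.05 there were 1 to 3 of them, the 3 in LoF input, against 10.8% of all genes there.

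The 9 erythroid markers tested were all below 0 in LoF monosomes, with a median of -0.61. Of these, 5 had an unadjusted p below 0.05, against 4.2% of all genes, and 0 passed. Their summed level was 1809, 1142 and 1068 CPM in LoF cHet monosomes, against 1801, 2409 and 2004 CPM in LoF control monosomes. In the other comparisons 0 or 1 of them had an unadjusted p below 0.05. The 8 microglia markers had a median of -0.31 in LoF monosomes. These 8, the 8 intermediate progenitor markers and the 10 endothelial and meningeal markers had 0 to 2 genes a list at an unadjusted p below 0.05 in each comparison. The shares of all genes there were 3.23% to 11.8%. Of these 3 lists 0 genes passed, and DESeq2 called 1, Sstr2 of the progenitor list in T532M monosomes. In T532M polysomes the endothelial and meningeal markers were all above 0, with a median of 0.52 and summed levels of 1569, 886 and 591 CPM in cHet, against 431, 1251 and 382 CPM in control.

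The authors' deposited tables of each cross called 0 of the 42 genes in each of 6 columns. The names of the mono and poly columns do not say what was compared. Bub1 stood at 0.667 in the LoF mono column. Its LoF monosome libraries overlapped, at 66.15, 52.29 and 57.26 CPM in cHet and 53.05, 62.61 and 59.19 CPM in control. Ccne2, Bub1 and Kif20b stood at 0.971, 0.783 and 0.62 in the LoF poly column, near their changes of polysome over input given above. The mono and poly columns are therefore not set beside the genotype differences within fractions. Over all genes with an adjusted p, the authors' deposited table of the LoF cross gave 70 calls among 12450 genes in the input column. It gave 0 among 17956 in the mono column and 1 among 17956 in the poly column. The same columns of the T532M cross gave 123 among 13303, 51 among 9279 and 1 among 13840. In the authors' deposited table of the LoF cross the lowest adjusted p among the 42 genes was that of Kif20b in the input column, at 0.14, and in the authors' deposited table of the T532M cross that of Ccne2 in the input column, at 0.23.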

How the data were processed

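Read counts per gene were those the authors deposited for 36 libraries. Per the file headers, featureCounts v2.0.3 assigned each read pair by the full span of a gene, introns included and reverse-stranded, on GRCm38 with GENCODE M25. Per the submitters' processing notes, the tools were DESeq2 1.34.0, Subread 2.0.3, STAR 2.7.11a and FastQC 0.11.7. The gradient fractions pooled for each library are not given in the sources used here. The authors' deposited tables of each cross list for each gene its log2 fold change with the raw p-value and the adjusted p-value.

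From the deposited counts, CPM was computed with TMM library sizes for description, and edgeR 4.0.16 in R 4.3.3 was used for the tests (filterByExpr, glmQLFit and glmQLFTest, 1 term per group, Benjamini-Hochberg adjustment over all genes, adjusted p below 0.05). Each cross was fitted over its 18 libraries and its 6 groups (18556 genes for LoF and 18243 for T532M), and differences between crosses over all 36 (19121 genes). In all, 22 comparisons were made. Fractions of a pool were treated as independent libraries. No label says what replicate numbers share. Same-numbered libraries deviated together, with every correlation of deviations from the group means over 0.1, in 2 of 6 pairs of genotypes (T532M monosomes, at 0.31 to 0.34, and T532M polysomes, at 0.23 to 0.60) and in 4 of 12 pairs of fractions; the others ranged down to -0.76. Since no label ties pools to litters or days, p-values measure the spread between these pools, which may be partly technical. Alternatives were DESeq2 1.42.0, its size factors, upper-quartile scaling, no filter on low counts, a replicate block, each fraction fitted alone, each library left out, and, chosen after seeing the data, each fraction alone with the block and the pools with most Ttr left out. Ttr was judged in input, and libraries of the other fractions were left out by replicate number, although no label ties these numbers to a pool. Coding lengths came from GENCODE M21 on GRCm38 and promoters from RefSeq. The fit was tested on simulated counts.

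The genes with full values were a fixed set of 10, the 5 highest and 5 lowest in polysome over monosome of controls, and the 3 with the lowest p in each genotype comparison. The members and lists were chosen with earlier results of these data known.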

Additional observations from a re-analysis of the deposited data

How the results depend on the processing

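As reported, 0 of the 42 genes passed in each comparison between genotypes, crosses or controls. With no filter on low counts 4 passed in LoF input, 2 in the LoF change of polysome over input and 4 in the LoF minus T532M difference in input. Without the pools with most Ttr, which left 1 LoF control pool assumed to vary like the other groups, the median in LoF monosomes was -0.25. DESeq2 gave 2 in the LoF minus T532M difference in input, and leaving out 1 library gave 0 to 5 there, the 5 without T532M control input library 2. These counts are given here without the shares of all genes in the same settings, and are not read as particular to these genes. The cause was not tested. Of single genes, Cdk2 in polysome over monosome turned to -0.088 (LoF) and -0.257 (T532M) with upper-quartile scaling and ranged from -0.014 (without T532M control polysome library 2) to 0.318 with 1 library left out. Mki67 turned to -0.128 in LoF controls without the pools with most Ttr, and Aurkb between controls in monosomes ranged from -0.029 to 0.222 with 1 library left out. Of the other values for single genes, 3323 kept direction and side of the threshold, 29 gained and 9 lost a call.

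With a replicate block, 0 of the 42 genes passed in each genotype comparison. Counting both directions, 40, 38 and 41 passed in polysome over monosome, polysome over input and monosome over input of LoF controls. The shares of all genes there were 82.1%, 80.2% and 64.5%. In T532M controls 41, 40 and 42 passed, against 82.2%, 81.4% and 68.3% of all genes. With each fraction fitted alone and the block, 1 gene passed in T532M monosomes and 0 in the other 5 comparisons of genotypes within a fraction. The block changed no other call of the 42 genes than those given for Ccnd2, Ccnd1, Ccna2, Pcna and Birc5. Among all genes in T532M monosomes it took the calls to 349 over all fractions and 876 for monosomes alone, against 188 without it.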
